A study of Homo sapiens with 60 samples.

Results

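The genes described here are 33 that serve protein folding in the endoplasmic reticulum (ER) or the unfolded protein response (UPR). They were chosen by symbol, and all 33 matched 1 row each among the 60675 gene rows of the count table. They fall into 5 roles: 9 HSP70 and HSP90 type chaperones and their cofactors, 8 folding enzymes and lectin chaperones, 4 sensors and transcription factors, 8 factors of ER-associated degradation (ERAD), and 4 of translocation and export. A filter on low counts kept 32 of them. DERL3, an ERAD factor, had at most 6 counts in any library and was not tested.

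RNA was sequenced from HepG2 cells, a human hepatocellular carcinoma line, 24 h after addition of a plant extract or of the vehicle dimethyl sulfoxide. Of the 8 extracts, Yijin-tang (yijin) and Soshiho-tang (soshiho) are multi-herb decoctions made with hot water. The other 6 were made with 70% ethanol from single plants, namely roots of Polygala and of Aucklandia, seed of Zizyphus, aril of longan, fruit of Schisandra, and tuber of Liriope or Ophiopogon (here liriope). Polygala was given at 10, 50 and 250 µg/mL, aucklandia at 11.2, 56 and 280 µg/mL, and every other extract at 20, 100 and 500 µg/mL, called low, medium and high. The series text names a 20% inhibitory concentration for the top dose, and inhibition by these doses was not examined here. There were 3 libraries of vehicle and 3 per dose of 5 extracts, while soshiho had 2 at each dose and both polygala and aucklandia had 1. HepG2 is a single transformed line and stands in only in part for hepatocytes. Whether replicates came from separate cultures is not given in the labels, so the p-values measure the spread between these libraries, which may be technical.

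The shallowest library, high aucklandia, held 20.7 M expected counts (M, mega), and high liriope replicate 2 was among the deepest at 37.6 M. All 10 hepatocyte markers were above 1 CPM (counts per mega-count of the scaled library) in vehicle and summed to 47647 to 52023 CPM, while 2 of 6 fibroblast, 1 of 4 endothelial and 2 of 5 leukocyte markers were above 1 CPM. The leukocyte sum was nearly all LYZ, at a mean of 994 CPM, and PTPRC, the pan-leukocyte marker, was at 0 in vehicle. The vehicle libraries carry a sample code that no treated library shares, and mitochondrial genes took 15.2 to 18.4% of their counts against 9.50 to 15.9% in the 51 libraries of the 6 replicated extracts. High dose was therefore compared with low dose first, because all doses of an extract share their codes. Replicate 1 of low schisandra and replicate 2 of high liriope stood furthest from their replicates, with a spread of 0.249 and 0.222 (SD of log2 differences) against 0.0764 to 0.164 in the others, and results that rest on them are given with and without them.

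Proteins bound for secretion fold in the ER with the help of the HSP70 chaperone BiP, encoded by HSPA5, of protein disulfide isomerases and of the lectin chaperones calreticulin and calnexin. When unfolded proteins accumulate, 3 sensors respond. IRE1, encoded by ERN1, splices XBP1 mRNA, ATF6 is cleaved into a transcription factor, and PERK, encoded by EIF2AK3, slows translation and favours ATF4. Hepatocytes secrete large amounts of plasma protein, and their ER folding capacity is accordingly high.

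ATF6 and XBP1 act in part through short promoter elements, which are shown here as a description. The genes were chosen as known genes of the ER and the UPR. Their share of matches beside that of all promoters is therefore not separate support. In RefSeq promoters (250 bases before to 50 after each annotated start, GRCh38.p14) 29 of the 33 genes had an entry. The ER stress response element ERSE (CCAAT and CCACG with 9 bases between, either strand) was found in the promoters of 8 of them, CALR, CANX, CRELD2, ERO1B, HSP90B1, HSPA5, PDIA6 and XBP1, and in 0.0769% of the 35116 promoters of the table. ERSE-II (ATTGG, any base, then CCACG) was found in HERPUD1, HYOU1 and SDF2L1 and in 0.0541% of all promoters. The UPR element (TGACGTGG) was found in HYOU1, where it overlaps one of 2 ERSE-II matches, and in 0.729% of all promoters. The cAMP response element (TGACGTCA) was found in 0 of the 29 and in 1.85% of all promoters. A match is a description of the sequence and not evidence of binding. The 250 bases before the start follow for 5 of these genes whose levels recur below, with the matches in capitals. They lie at chr9:125241344-125241593 (HSPA5, minus strand), chr11:119057206-119057455 (HYOU1, minus strand), chr16:56931892-56932141 (HERPUD1, plus strand), chr22:28800570-28800819 (XBP1, minus strand) and chr19:12938359-12938608 (CALR, plus strand).
HSPA5: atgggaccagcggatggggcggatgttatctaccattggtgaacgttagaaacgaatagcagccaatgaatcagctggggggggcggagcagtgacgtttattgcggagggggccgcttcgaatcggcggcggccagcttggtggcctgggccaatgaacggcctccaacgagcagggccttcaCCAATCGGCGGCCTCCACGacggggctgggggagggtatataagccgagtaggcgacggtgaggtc
HYOU1: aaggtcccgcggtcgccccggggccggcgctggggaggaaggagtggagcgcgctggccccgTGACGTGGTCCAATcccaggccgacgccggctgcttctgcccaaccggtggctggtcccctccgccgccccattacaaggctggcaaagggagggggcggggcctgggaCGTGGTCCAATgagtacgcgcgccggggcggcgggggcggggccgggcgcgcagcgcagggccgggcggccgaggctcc
HERPUD1: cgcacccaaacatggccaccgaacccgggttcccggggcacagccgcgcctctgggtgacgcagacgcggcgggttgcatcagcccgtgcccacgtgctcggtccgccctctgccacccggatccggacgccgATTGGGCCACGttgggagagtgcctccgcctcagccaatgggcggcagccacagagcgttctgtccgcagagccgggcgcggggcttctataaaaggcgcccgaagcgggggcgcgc
XBP1: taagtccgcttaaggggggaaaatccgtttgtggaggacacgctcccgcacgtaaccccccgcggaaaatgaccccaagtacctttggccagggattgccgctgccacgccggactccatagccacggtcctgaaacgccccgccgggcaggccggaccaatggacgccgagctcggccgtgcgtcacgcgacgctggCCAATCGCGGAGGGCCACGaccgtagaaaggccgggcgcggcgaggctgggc
CALR: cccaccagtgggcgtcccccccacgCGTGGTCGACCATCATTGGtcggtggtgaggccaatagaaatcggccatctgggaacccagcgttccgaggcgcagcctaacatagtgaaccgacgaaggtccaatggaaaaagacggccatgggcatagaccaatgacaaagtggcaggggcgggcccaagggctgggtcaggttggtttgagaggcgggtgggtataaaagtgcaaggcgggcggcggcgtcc
The ERSE of HSPA5 runs from position -66 to -48 relative to the annotated start and that of XBP1 from -52 to -34, both on the strand of the gene. The ERSE of CALR lies at -225 to -207 on the other strand. HYOU1 holds its ERSE-II matches at -185 to -175 and -79 to -69, and HERPUD1 holds its match at -117 to -107.

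In vehicle the levels per kb of exon (CPM per kb) spanned a wide range. CALR was highest at 540.0 CPM per kb, followed by HSPA5 at 315, P4HB, a protein disulfide isomerase, at 305, HSP90B1, the ER HSP90 known as GRP94, at 211, PPIB, a prolyl isomerase, at 181, PDIA4 at 175 and CANX at 156. The sensors and transducers were far lower, with EIF2AK3 at 6.82, ATF6 at 6.10 and ERN1 at 1.33 CPM per kb, while XBP1 mRNA stood at 109.9. ERO1B, an ER oxidase, was the lowest of the 32 tested at 0.438. Over the 54 replicated libraries these genes varied little. The highest library was 1.15-fold above the lowest for P4HB and 1.25-fold for HSPA5, and 2.01-fold for SEC61B, a subunit of the translocon.

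With yijin, 5 of the 32 genes rose between low and high dose and 0 fell, that is 15.6% of them beside 7.79% of all 16924 genes tested (edgeR, adjusted p under 0.05 here and below). The median log2 change of the 32 was 0.08, with 29 above 0, and the median of all genes was -0.00. By role, 3 of 9 chaperones, 1 of 8 folding factors and 1 of 4 sensors rose, and 0 of 7 ERAD and 0 of 4 translocation and export genes passed.

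HSPA5 (chromosome 9, 125234853 to 125241330, minus strand, GRCh38), the BiP gene, was at 1173, 1152 and 1139.6 CPM in the 3 libraries of low yijin, at 1236, 1252 and 1177 with medium and at 1340.1, 1357 and 1316 with high yijin. Vehicle had 1285, 1188 and 1224 CPM. All high-dose libraries were above every low-dose, medium-dose and vehicle library. The high vs low change was log2 0.21 ± 0.035 (SE, n = 3 each, adjusted p = 3.5e-05), or 1.15-fold. Against the medium dose it was 0.13 ± 0.035 (adjusted p = 0.0215) and against vehicle 0.12 ± 0.035 (adjusted p = 0.00997).

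HYOU1 (chromosome 11, 119044189 to 119057202, minus strand), which encodes the large HSP70-like chaperone GRP170 that acts as nucleotide exchange factor for BiP, had 393, 394 and 382 CPM at the low dose and 436, 435 and 426 at the high dose. It rose by log2 0.15 ± 0.037 (n = 3 each, adjusted p = 0.00754) and by 0.15 ± 0.037 from medium to high (adjusted p = 0.0102). The medium dose, at 396, 390.0 and 382 CPM, overlapped the low dose and lay below every high-dose library. HSPA5 and HYOU1 were the 2 genes called between medium and high yijin, 6.25% of the 32 beside 4.66% of all genes. High yijin and vehicle overlapped for HYOU1, since vehicle had 413, 433 and 434 CPM. Without replicate 3 of low yijin the adjusted p for HYOU1 was 0.0556.

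DNAJC3 (chromosome 13, 95677139 to 95794989, plus strand), a BiP cochaperone also known as an inhibitor of PERK, changed most of the 5, by 0.30 ± 0.070 (n = 3 each, adjusted p = 0.00385). Its levels were 83.1, 79.9 and 78.5 CPM at the low dose, 84.5, 90.1 and 84.7 with medium and 100.1, 101 and 96.0 with high yijin, with vehicle at 82.9, 77.3 and 80.0. The high dose stood above all other yijin libraries and above vehicle, by 0.31 ± 0.070 (adjusted p = 9.3e-04).

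CANX, the membrane-bound lectin chaperone calnexin (chromosome 5, 179678628 to 179730925, plus strand), had 917, 892 and 854 CPM at the low and 1005, 1006 and 979.6 CPM at the high dose, a change of 0.16 ± 0.035 (n = 3 each, adjusted p = 0.00141). Vehicle, at 1037, 954 and 935 CPM, overlapped the high dose. ATF6 (chromosome 1, 161766294 to 161964070, plus strand) had 44.8, 44.2 and 41.6 CPM at the low and 49.8, 50.5 and 48.3 CPM at the high dose, a change of 0.18 ± 0.056 (n = 3 each, adjusted p = 0.0347). Vehicle had 53.2, 46.4 and 44.9 CPM of ATF6 and so spanned both doses. The ATF6 call was lost when any library of high yijin was left out (adjusted p 0.0509 to 0.136), and without replicate 2 or 3 of low yijin (0.0655 and 0.194).

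**Figure D1:**
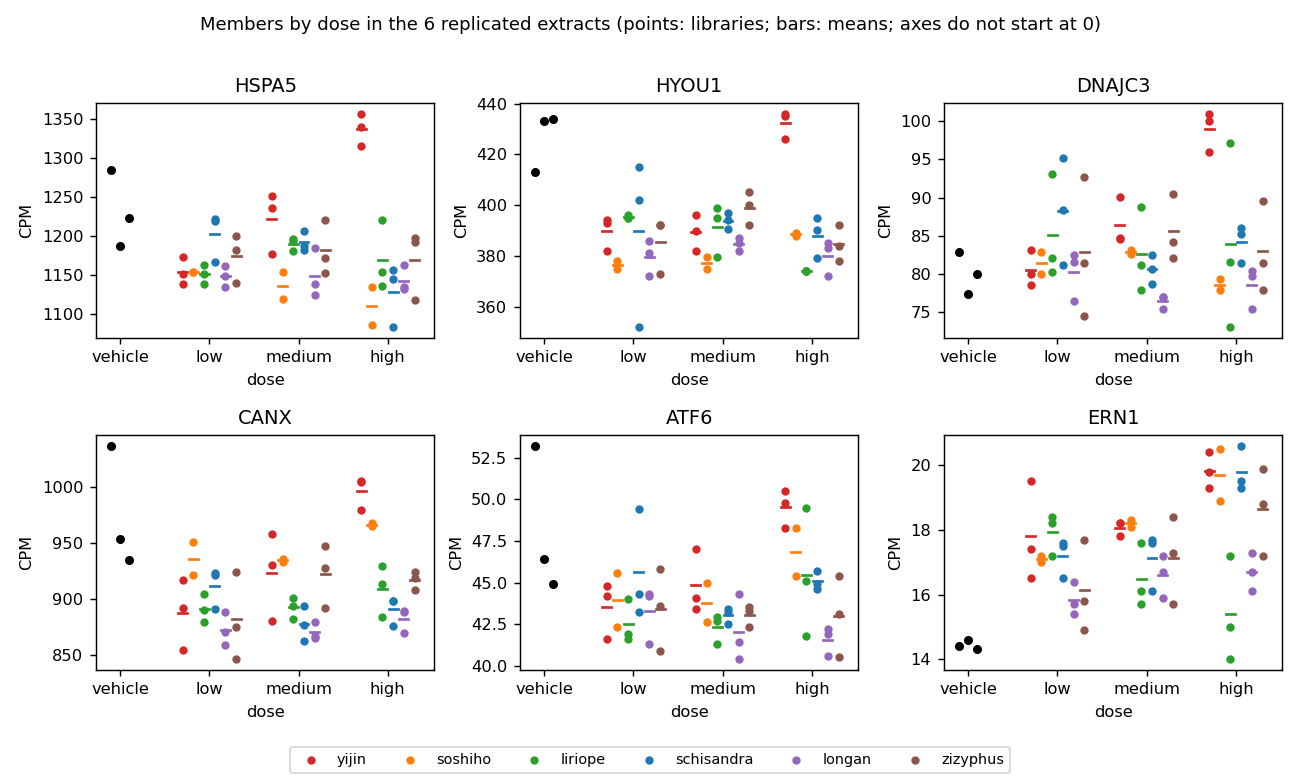
CPM of 6 genes (vertical axes, not starting at 0) in vehicle and at the low, medium and high dose of the 6 replicated extracts. Points are libraries and bars are means of 2 or 3 libraries. At the high dose yijin (red) lies above the other extracts for HSPA5, from 1316 to 1357 CPM, and for HYOU1, from 426 to 436 CPM.

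The other 27 tested genes did not pass with yijin. SSR1, a translocon-associated subunit, EDEM1, a lectin of ERAD, and ERN1 had estimates as large as that of HYOU1, at 0.15, 0.15 and 0.16, with adjusted p of 0.0872, 0.211 and 0.175. HSP90B1, PDIA4, PDIA6, P4HB and CALR were between 0.03 and 0.08, and HERPUD1 was lowest at -0.06 (adjusted p = 0.593). Summed over the 32 tested genes, the share of the library was 1.11 to 1.12% in high yijin, 1.05 to 1.07% in low yijin and 0.989 to 1.02% in vehicle. These shares are of unscaled totals, mitochondrial counts included. In scaled CPM the sum was 11176 to 11370.1 in high yijin, 10532 to 10581 in low yijin and 10866 to 11068 in vehicle. On that scale vehicle lay between low and high yijin. Leaving out the 2 libraries that stood apart, neither of them of yijin, gave 7 calls, beside 10.4% of all genes. The same 5 were among them, with EDEM1 and SSR1 added. Between low and medium yijin 0 of the 32 were called, beside 0.00591% of all genes, and 2 had an unadjusted p under 0.05.

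Genes near these in the pathway moved with yijin as follows. Of 18 other ER folding factors 5 rose and 0 fell (median 0.12), among them ERO1A, the main ER oxidase (0.25, adjusted p = 9.2e-04), DNAJC10, a reductase cochaperone of BiP (0.26, adjusted p = 0.00113), and TXNDC5 (0.13, adjusted p = 0.0105). Of 19 other genes of the translocon, signal peptidase and glycosylation 3 rose, SPCS3 (0.24), RPN1 (0.14) and SSR3 (0.18). Of 17 other genes of COPII export 1 rose, and of 12 cytosolic heat shock chaperones 0 were called in either direction. Among 14 tested genes of the PERK and ATF4 arm 1 rose and 3 fell. SLC7A11, a cystine transporter, rose by 0.32 (adjusted p = 0.00726), and NUPR1 fell by 0.52, TRIB3, a pseudokinase, by 0.23 and ASNS, asparagine synthetase, by 0.20. ATF4 itself was at -0.11 and DDIT3, which encodes CHOP, at -0.12, and neither passed. Of the 10 hepatocyte markers 3 fell, TF by 0.21, FGB by 0.26 and APOA1 by 0.28. LYZ, on the leukocyte list, rose by 0.46 (adjusted p = 6.9e-08) while PTPRC stayed at 0 in high yijin, and the part of either list in these results was not tested.

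**Figure D2:**
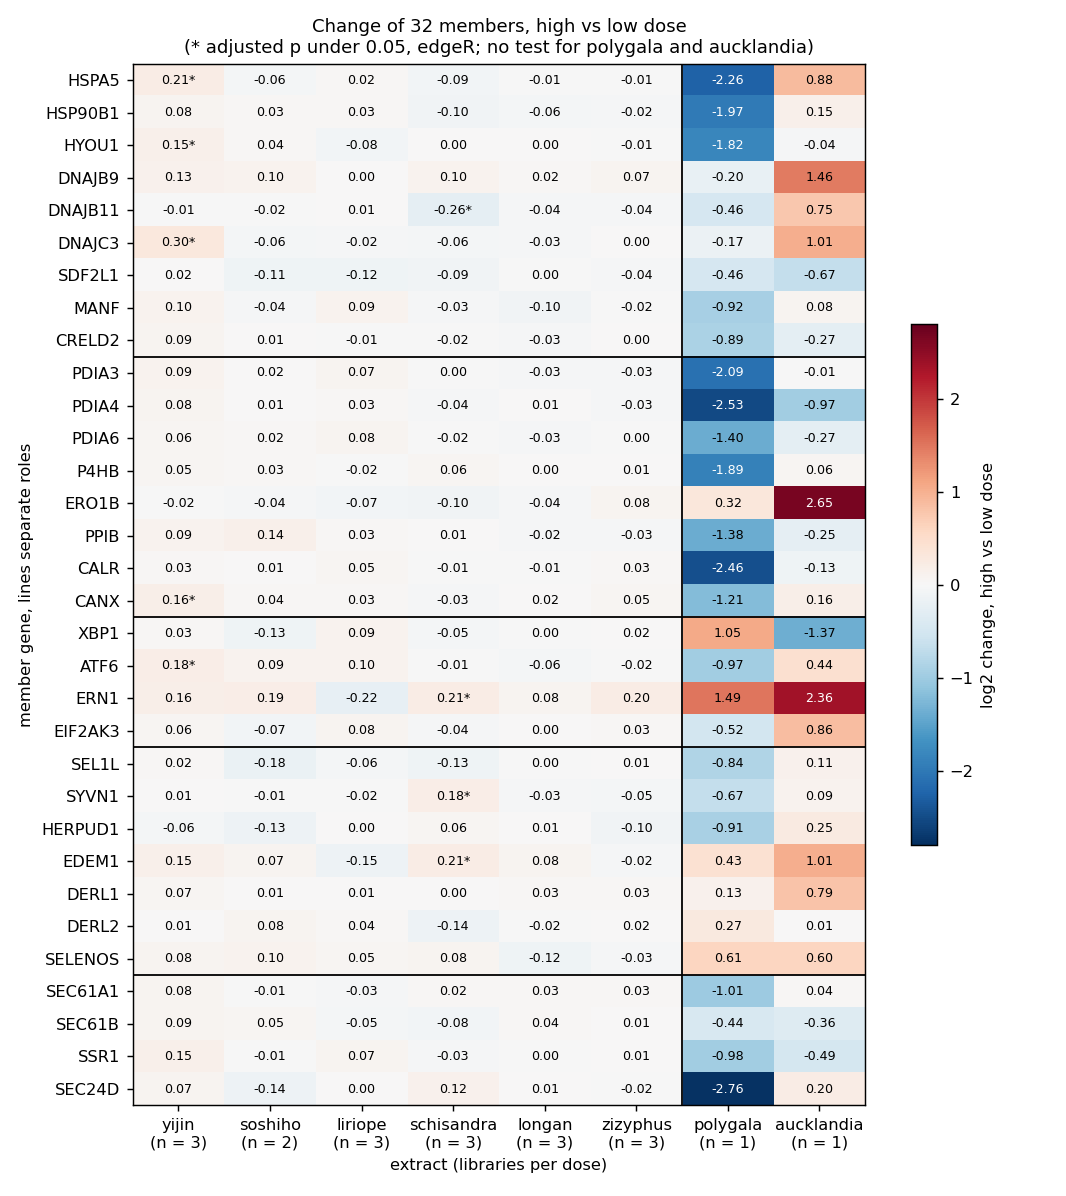
Change of the 32 tested genes (rows, in order of role) between low and high dose of the 8 extracts (columns), as log2 of the ratio on a colour scale that runs from blue (lower at the high dose) to red (higher). Stars mark calls by edgeR, which cover 5 genes with yijin and 4 with schisandra, while the 2 columns without replicates, polygala and aucklandia, have no test.

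With schisandra, 3 of the 32 genes rose between low and high dose and 1 fell, 12.5% of them beside 7.33% of all genes tested, and the median was -0.02. These calls rest on a library that stands apart. DNAJB11, a BiP cochaperone, had 123, 109 and 97.1 CPM at the low dose and 93.6, 89.8 and 91.5 at the high dose, a change of -0.26 ± 0.057 (n = 3 each, adjusted p = 0.00260). EDEM1 had 50.7, 55.2 and 56.4 CPM at the low and 57.8, 64.2 and 65.3 at the high dose (0.21 ± 0.066, adjusted p = 0.0359). SYVN1, the ERAD ubiquitin ligase HRD1, had 68.5, 78.4 and 81.2 CPM at the low and 86.0, 86.0 and 84.8 at the high dose (0.18 ± 0.055, adjusted p = 0.0373). ERN1 had 16.5, 17.6 and 17.5 CPM at the low and 19.3, 20.6 and 19.5 at the high dose (0.21 ± 0.066, adjusted p = 0.0422). The high-dose and low-dose libraries did not overlap for any of the 4. The first value of each low-dose set is the library that stood furthest from its replicates, and it held the highest DNAJB11 and the lowest EDEM1, SYVN1 and ERN1. Without it 0 of the 32 were called, DNAJB11 had an adjusted p of 0.112, EDEM1 0.279, SYVN1 0.432 and ERN1 0.249. Leaving out a high-dose library instead left 2 calls (replicate 1) or 1 call (replicate 2 or replicate 3), and leaving out low replicate 3 gave 7. When libraries were scaled by their totals alone, 0 rose and 3 fell, beside 8.22% of all genes called. The 3 were DNAJB11 (-0.30), HSP90B1 (-0.14) and HSPA5 (-0.13).

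Beside these calls, 8 of 14 tested genes of the PERK and ATF4 arm rose with schisandra and 1 fell (median 0.21). DDIT4, a stress-induced inhibitor of mTORC1, rose by 0.77 (adjusted p = 4.5e-07), SLC7A11 by 0.53 (8.5e-06), STC2 by 0.22 (0.00177) and ASNS by 0.21 (0.00569). TRIB3 was at 0.08, ATF4 at 0.02 and DDIT3 at -0.01, which did not pass. Of 12 cytosolic heat shock chaperones 5 fell, among them DNAJA1 (-0.30), HSP90AA1 (-0.22) and HSP90AB1 (-0.12). Among the other ER folding factors ERO1A alone of 18 was called (0.24, adjusted p = 0.00198). Without replicate 1 of the low dose 6 of the 14 PERK and ATF4 genes rose and 0 fell (median 0.22), beside 3.63% of all genes called, and 3 of the 12 heat shock chaperones fell. DDIT4 was then at 0.68, SLC7A11 at 0.54, STC2 at 0.19, ASNS at 0.27, DNAJA1 at -0.23, HSP90AB1 at -0.12 and ERO1A at 0.29, all still called, while HSP90AA1 was at -0.16 (adjusted p = 0.165). TRIB3 was at -0.02 and still not called. With all libraries in the fit, the hepatocyte markers FGB (-0.26) and TTR (0.35, adjusted p = 0.0382) moved in opposite directions, and LYZ rose by 0.43. Values of these genes without replicate 1 of the low dose are not given.

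Between low and high dose of soshiho, liriope, longan and zizyphus 0 of the 32 genes were called, beside 5.08%, 0.0295%, 0.0177% and 0.0355% of all genes. DESeq2 called 0 as well, beside 2.30%, 0.0352%, 0.0162% and 0.0379% of the genes it tested. By edgeR 4, 3, 0 and 2 of the 32 had an unadjusted p under 0.05. With soshiho the lowest change was that of SEL1L, the adaptor of the HRD1 ligase, at -0.18 (adjusted p = 0.152), and the highest that of ERN1 at 0.19 (adjusted p = 0.222). HSPA5 had 1155 and 1154 CPM at the low and 1086 and 1135 CPM at the high dose of soshiho, a change of -0.06 with a 95% interval from -0.15 to 0.02. In liriope, longan and zizyphus HSPA5 was at 0.02 (-0.05 to 0.09), -0.01 (-0.08 to 0.06) and -0.01 (-0.08 to 0.06). With liriope ERN1 was lowest at -0.22 (adjusted p = 0.505), at 18.4, 17.2 and 18.2 CPM in the low and 17.2, 14.0 and 15.0 CPM in the high dose, which overlap at 17.2 CPM. The second of these high-dose values is from the liriope library that stood apart. With zizyphus ERN1 was highest at 0.20 (adjusted p = 0.724), and with longan all 32 lay between -0.12, for SELENOS, and 0.08, for EDEM1 and ERN1.

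In the PERK and ATF4 arm 5 of 14 tested genes rose with soshiho and 0 fell. SLC7A11 rose by 0.79 (adjusted p = 9.4e-08), STC2 by 0.39 and ASNS by 0.27 (adjusted p = 0.00365), ATF4 was at 0.24 and TRIB3 and DDIT3 at 0.08 and -0.07, none of the last 3 called. CREB3L3, an ER-anchored transcription factor of liver, rose by 0.59 with soshiho (adjusted p = 2.2e-04). With schisandra it rose by 0.43, with the low-dose library that stood apart included. DNAJA1, a cytosolic cochaperone, fell by 0.23 with soshiho, COL1A1 of the fibroblast list fell by 1.22 and LYZ rose by 0.44. With zizyphus ASNS fell by 0.43 (adjusted p = 3.0e-06), and ATF4, TRIB3 and DDIT3 were at -0.07, -0.09 and -0.11. In liriope ASNS, ATF4, TRIB3 and DDIT3 were at -0.16, 0.10, -0.02 and 0.22, and in longan at 0.02, 0.02, 0.07 and -0.06, with no call.

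Between low and medium dose 0 of the 32 genes were called in any of the 6 extracts, beside 0.118%, 0%, 0.0709%, 0% and 0.00591% of all genes in soshiho, liriope, schisandra, longan and zizyphus, and in the 5 other than yijin 0 had an unadjusted p under 0.05. Between medium and high dose 0 were called in soshiho, liriope, schisandra, longan or zizyphus, beside 3.21%, 0.0236%, 3.20%, 0.0177% and 0.0177% of all genes.

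Whether the dose response differed between extracts was tested directly. Over the 6 replicated extracts the high vs low change was unequal for 2 of the 32, HSPA5 (adjusted p = 6.1e-04) and ERN1 (adjusted p = 0.00833), or 6.25% beside 5.52% of all genes. DESeq2 called 5, beside 2.97% of the genes it tested. Among the 15 pairs of extracts, each adjusted over all genes within the pair, 11 differences were called. HSPA5 responded more to yijin than to each of the 5 other extracts, by 0.27 ± 0.055 against soshiho (adjusted p = 0.00445), 0.18 ± 0.049 against liriope (0.0235), 0.29 ± 0.049 against schisandra (0.00106), 0.21 ± 0.049 against longan (0.00897) and 0.22 ± 0.049 against zizyphus (0.00978). Calls in pairs without yijin were limited to soshiho against liriope and liriope against schisandra, given below. In the 8 other pairs 0 were called, beside 1.36% and 1.33% of all genes for schisandra against longan and zizyphus, 1.26%, 2.04% and 2.02% for soshiho against schisandra, longan and zizyphus, and at most 0.00591% among liriope, longan and zizyphus. In the 5 yijin pairs 0.880%, 2.85%, 0.957%, 2.01% and 1.44% of all genes were called. All 5 share the yijin libraries and are not separate tests. The call against liriope was lost when any of 5 single libraries was left out, replicate 1 of high or 2 of low liriope or replicate 2 of high or 2 or 3 of low yijin (adjusted p 0.0508 to 0.0756). That against soshiho was lost without replicate 2 of high soshiho (0.0844) and that against zizyphus without replicate 3 of high zizyphus (0.0553). Without the filter on low counts only the difference from schisandra was called among the 5.

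HYOU1 also responded more to yijin than to liriope (0.23 ± 0.052, adjusted p = 0.00672), and CANX more to yijin than to schisandra (0.19 ± 0.050, adjusted p = 0.0468). The CANX call was lost when any high library of either extract, replicate 1 of low schisandra or replicate 2 or 3 of low yijin was left out (adjusted p 0.0611 to 0.169). For ERN1 a difference was called between liriope and 3 extracts. It was 0.38 ± 0.095 for yijin minus liriope, 0.42 ± 0.106 for soshiho minus liriope and -0.43 ± 0.095 for liriope minus schisandra. In the last 2 pairs 3.10% and 4.11% of all genes were called. With zizyphus ERN1 changed by 0.20 ± 0.068 and with liriope by -0.22 ± 0.067, and that difference was not called. Hardly any gene was called in that pair, and adjustment runs within each pair, so the missing call does not show a like response. EDEM1 differed by -0.36 ± 0.093 for liriope minus schisandra (adjusted p = 0.0159). Without the 2 libraries that stood apart, 1 each of liriope and schisandra, the ERN1 differences were 0.31, 0.35 and -0.33 with adjusted p of 0.0642, 0.0551 and 0.0788, and the EDEM1 difference was -0.18 (adjusted p = 0.307).

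Against vehicle, more genes of the group were called, and so were more of all genes. At the high dose 8 rose and 4 fell with yijin (beside 23.4% of all genes), 3 and 9 with soshiho (21.8%), 1 and 8 with liriope (16.8%), 4 and 8 with schisandra (22.1%), 3 and 11 with longan (19.6%) and 3 and 9 with zizyphus (16.9%). At the low dose 9 to 15 of the 32 were already called, beside 15.2%, 11.9%, 16.6%, 21.5%, 20.1% and 16.5% of all genes in the same order. At the medium dose 5 rose and 6 fell with yijin (beside 16.7%), 2 and 7 with soshiho (10.2%), 3 and 8 with liriope (18.3%), 4 and 9 with schisandra (20.1%), 3 and 11 with longan (19.2%) and 4 and 7 with zizyphus (16.7%). The 18 comparisons with vehicle share its 3 libraries, so what recurs among them can come from those 3, and the extracts and the code set of vehicle cannot be told apart here. Marker lists moved with the same contrasts. The hepatocyte sum was 47647 to 52023 CPM in vehicle and 38776 to 48847 in the 51 treated libraries, and the leukocyte sum, nearly all LYZ, was 975 to 1036 and 997 to 1709 CPM. The fibroblast sum was 13.2 to 14.4 and 6.45 to 18.3 CPM and the endothelial sum 5.00 to 5.92 and 4.04 to 6.24 CPM. Their part in the calls against vehicle was not tested.

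HERPUD1, an ER membrane protein of the HRD1 complex (chromosome 16, 56932048 to 56944863, plus strand), had 77.7, 85.2 and 88.3 CPM in vehicle and 54.7 to 68.3 CPM in the 51 treated libraries (median 61.9). The groups did not overlap. It was lower than vehicle in 18 of 18 dose groups, by -0.61 to -0.35 (largest adjusted p = 3.5e-06), and low and high dose did not differ by a call in any extract. SYVN1 had 96.5, 99.1 and 102 CPM in vehicle and 68.5 to 87.3 CPM in treated libraries and was lower in 18 of 18 dose groups (-0.39 to -0.21). EIF2AK3, the PERK gene, had 35.6 to 39.7 CPM in vehicle and 26.1 to 35.5 CPM in treated libraries and was also lower in 18 of 18 (-0.37 to -0.21).

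Higher than vehicle were SEC61B (18 of 18 dose groups, 0.35 to 0.62), EDEM1 (16 of 18) and ERN1 (15 of 18). SEC61B was at 34.4 to 38.8 CPM in vehicle and 38.6 to 69.3 in treated libraries (median 53.2). EDEM1 was at 42.4 to 46.6 CPM in vehicle and 41.0 to 65.3 in treated libraries. ERN1 was at 14.4, 14.6 and 14.3 CPM in vehicle and 14.0 to 20.6 in treated libraries (median 17.4). Unlike those of HERPUD1, the treated libraries overlapped vehicle for each of these genes. CALR and HYOU1 were each lower in 16 of 18 dose groups, DNAJB9, a cochaperone that represses IRE1, in 12, CANX and SEC24D, a COPII cargo adaptor, in 11, DNAJB11 in 10 and ATF6 in 8. XBP1, PDIA3, PDIA6, P4HB, PPIB, ERO1B, DERL1 and SSR1 were called in 0 of the 18.

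The share of mitochondrial counts and the normalization factors of the vehicle libraries (0.894 to 0.932, against 0.920 to 1.02 in treated libraries) move with these contrasts, and scaling by library totals alone shifted the median of all genes upward to between 0.10 and 0.13. Under that scaling the high-dose calls with yijin were 21 higher and 2 lower, beside 29.1% of all genes called. They were 8 and 4 with soshiho (24.4%), 7 and 3 with liriope (22.8%) and 9 and 2 with schisandra (25.4%). With longan they were 12 and 2 (27.2%) and with zizyphus 9 and 2 (25.2%). Among all genes 77.4 to 88.4% of the calls were higher, so the tilt upward was not particular to these genes. HERPUD1 was still lower in 6 of 6 high doses and SYVN1 in 5, while SEC61B and EDEM1 were higher in 6 and ERN1 in 5. EIF2AK3 was then called lower in 1, CALR in 0, and HYOU1 was called higher in 1 and lower in 0. DNAJB9, SEC24D and DNAJB11 were each called lower in 1. CANX and ATF6 were each called higher in 1 and lower in 0. The replicate of high liriope that stood apart had 15.9% mitochondrial counts. Of the 32 genes, 18 lay nearest the vehicle mean in that library among the 3 of high liriope, 5 in replicate 1 and 9 in replicate 3. CALR (1437 CPM, the others 1205 and 1238) is one of the 18, and SEC61B, at 48.0 CPM against 53.2 and 40.8, is not.

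**Figure D3:**
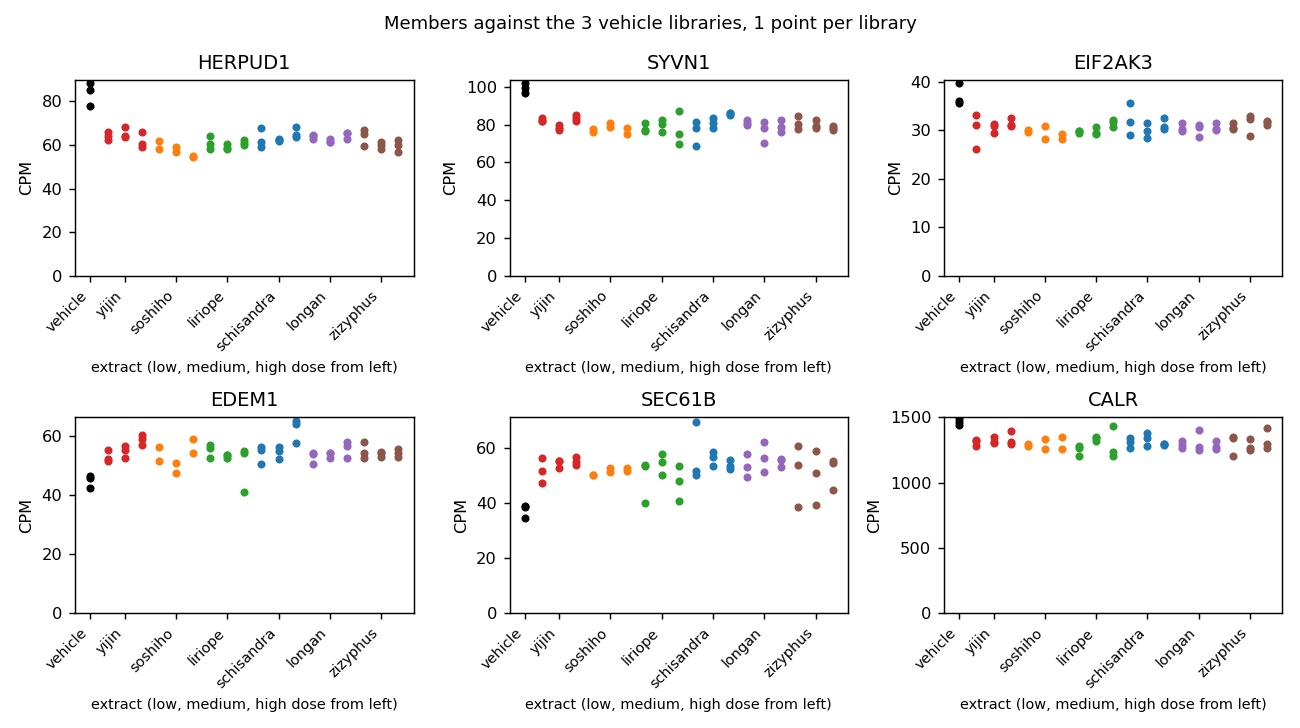
CPM (vertical axes from 0) of 6 genes in the 3 vehicle libraries (black) and in every library of the 6 replicated extracts, with the low, medium and high dose from left to right within each extract. HERPUD1 and SYVN1 lie below vehicle in every treated library, at 54.7 to 68.3 and 68.5 to 87.3 CPM, at all doses.

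Polygala and aucklandia had 1 library per dose, so their values have no replicate check and no p. Their libraries carry a sample code that none of the replicated libraries shares. Where their values are set beside the range of the replicated libraries, extract and code set cannot be told apart. For them a change is counted past 1.5-fold among genes with at least 10 CPM in the low-dose or high-dose library. Intervals in brackets are exact binomial intervals at 95% and cover counting error only. In bulk RNA a smaller share of cells with a transcript and less of it per cell cannot be told apart.

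At the high dose of polygala most of these genes were much lower than at the low dose. Of 31 with at least 10 CPM, 19 were lower (61.3%, beside 22.0% of all genes) and 3 higher (9.68%, beside 18.6%). Their median was log2 -0.91, against 0.02 for all genes. Together the tested genes of the group took 0.974% of the low, 0.899% of the medium and 0.460% of the high library. At the high dose 24 of the 31 (77.4%) lay below the range of the 54 replicated libraries, beside 35.4% of all genes.

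The largest drops were in export, folding and calcium-binding chaperone genes. SEC24D had 95.7 CPM (91.7 to 99.8) with low, 67.3 with medium and 14.2 (12.7 to 15.7) with high polygala, 6.76-fold lower. PDIA4, a disulfide isomerase with several thioredoxin domains, went from 501 to 367 to 86.7 CPM, 5.78-fold lower. CALR went from 1253 (1239 to 1268) to 979.9 to 228 CPM (222 to 234), 5.49-fold lower. HSPA5 followed with 1055, 833 and 221 CPM, 4.78-fold lower, where the 54 replicated libraries ran from 1084 to 1357.

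PDIA3, which works with the lectin chaperones, was 4.25-fold lower, HSP90B1 3.91-fold, P4HB 3.70-fold, HYOU1 3.54-fold, PDIA6 2.64-fold, PPIB 2.61-fold and CANX 2.32-fold. By role, 5 of 9 chaperones, 7 of 7 folding factors with at least 10 CPM, 3 of 4 translocation and export genes and 3 of 7 ERAD genes were lower. For 3 of the chaperones the drop was smaller than 1.5-fold, DNAJB11 (1.38-fold), SDF2L1 (1.37-fold) and DNAJC3 (1.13-fold), and DNAJB9 stayed within the range of the 54 libraries at 10.8 CPM.

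ERN1, XBP1 and SELENOS stood on the other side. ERN1 had 15.5 CPM (14.0 to 17.2), 16.4 and 43.6 CPM (41.0 to 46.4) from low to high, 2.81-fold higher. XBP1 had 379.8, 356 and 788 CPM, 2.08-fold higher, and SELENOS, a selenoprotein of the ERAD complex, 22.4 CPM with medium and 29.1 with high polygala, 1.53-fold above its low dose. The counts are per gene, so spliced and unspliced XBP1 are not separated. EDEM1 was above the range of the 54 libraries at 67.6 CPM, 1.35-fold above its low dose. ATF6 was at 47.3, 39.4 and 24.1 CPM and EIF2AK3 at 32.3, 31.6 and 22.5 CPM.

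**Figure D4:**
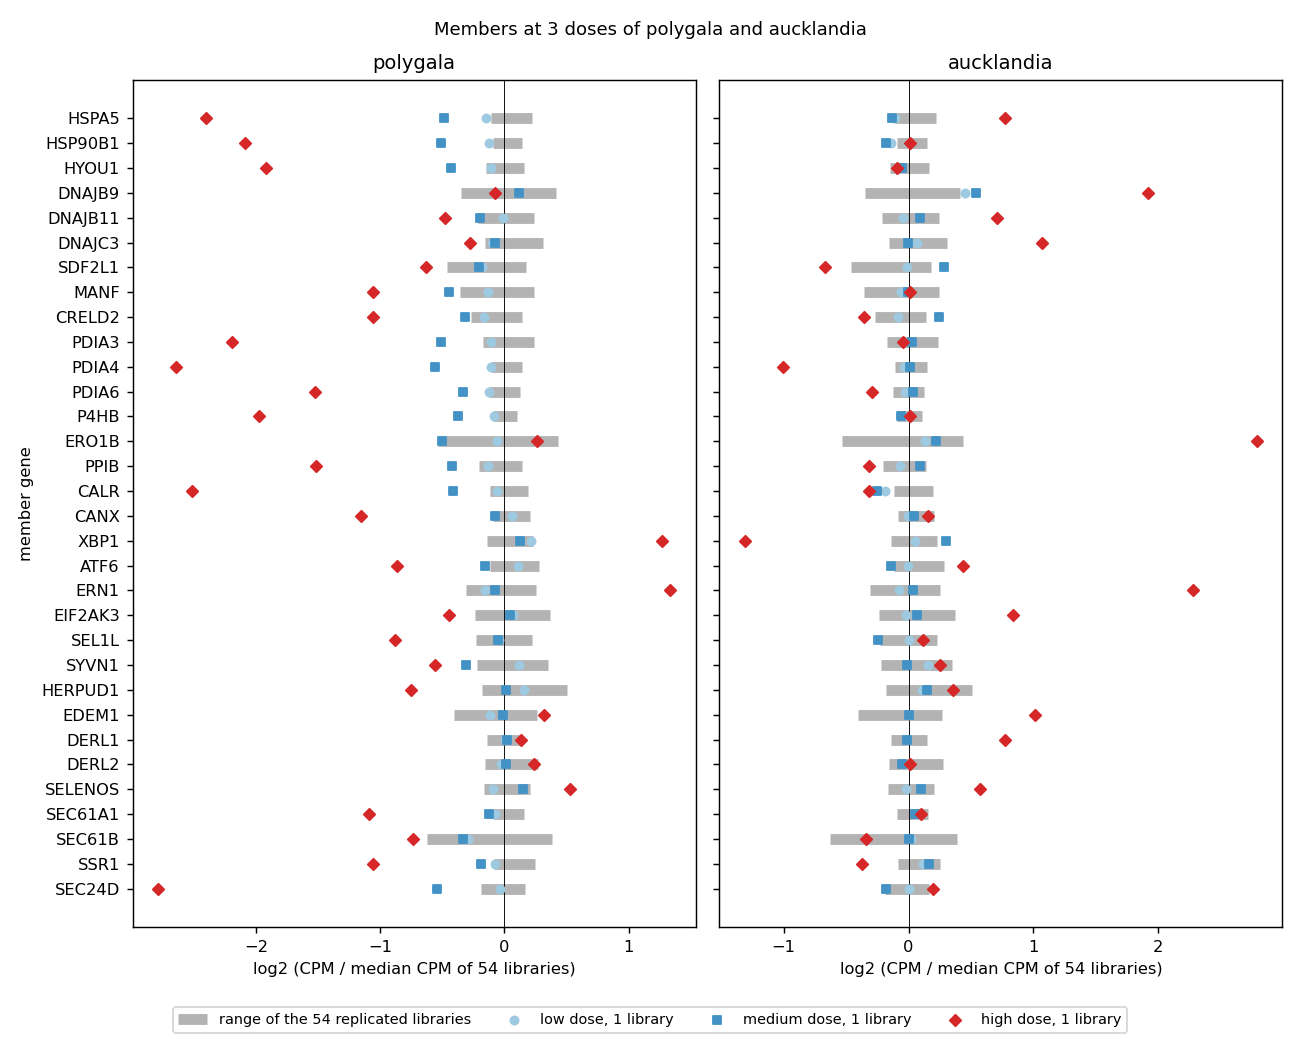
Level of the 32 genes (rows) at the low, medium and high dose of polygala (left) and aucklandia (right), 1 library each, as log2 of the CPM over the median of the 54 replicated libraries. Grey bars span those 54 libraries. With high polygala 24 genes lie below the bars, and with high aucklandia genes lie on both sides of them. Low aucklandia is already outside the bars for some genes, such as CALR (1145 CPM, bar from 1201) and DNAJB9 (15.6 CPM, bar up to 15.2).

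Lower levels in high polygala were not limited to these 33 genes. Of 18 other ER folding factors 12 were lower and 0 higher (median -0.66), of 19 other translocon, signal peptidase and glycosylation genes 10 (-0.63), of 17 other COPII genes 11 (-0.94), and of 12 cytosolic heat shock chaperones 8 (-0.85). Hepatocyte markers were lower in 8 of 10 (median -1.31) and summed to 45656 CPM at the low and 18486 CPM at the high dose. SERPINA1, a major secreted protein, went from 6051 to 1138 CPM and ALB from 7461 to 3484. The part of the fall in hepatocyte transcripts, or of an inhibitory top dose, in the values above was not tested. In the PERK and ATF4 arm 2 genes were higher, ATF3 (3.94 to 17.1 CPM, past 10 CPM in the high library only) and PPP1R15A, a phosphatase subunit that restores translation (19.6 to 65.0), and 2 lower, ASNS (29.9 to 7.20) and PSAT1 (225 to 80.4). ATF4 was at 333 and 435 CPM, TRIB3 at 185 and 128 and DDIT3 at 9.23 and 9.41. The sums of the fibroblast, endothelial and leukocyte lists were 14.2, 4.94 and 1041 CPM at the low and 7.16, 1.58 and 562 CPM at the high dose.

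With aucklandia 10 of 32 genes were higher at the high than at the low dose (31.2%, beside 21.9% of all genes) and 3 lower (9.38%, beside 23.3%). The median was 0.10 against -0.01 for all genes. ERO1B reached 10 CPM in the high library only, so its place among the 10 was set by the filter. With a filter of 10 CPM on the mean of vehicle, which uses neither library compared, 9 of 31 were higher (beside 18.6% of all genes) and 3 lower (9.68%, beside 24.5%). The medium dose differed little from the low dose for most of the 10 (HSPA5 at 1083, 1066 and 1996 CPM from low to high).

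ERO1B had 2.70 CPM (2.12 to 3.39), 2.86 and 17.0 CPM (15.3 to 18.8), 6.29-fold higher at the high dose and above the 1.70 to 3.32 CPM of the 54 replicated libraries. ERN1 had 16.4, 17.7 and 83.8 CPM (79.9 to 87.7), 5.12-fold higher. DNAJB9 had 15.6, 16.6 and 43.1 CPM, 2.76-fold higher. EDEM1, DNAJC3, HSPA5, EIF2AK3, DERL1, DNAJB11 and SELENOS were 2.02, 2.01, 1.84, 1.82, 1.72, 1.68 and 1.51-fold higher. By role these 10 are 4 chaperones, 1 folding factor, 2 sensors and 3 ERAD genes.

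XBP1 went the other way, at 339, 402 and 132 CPM (127 to 137), 2.58-fold lower. PDIA4 had 528, 544 and 269.6 CPM, 1.96-fold lower, and SDF2L1, a BiP cofactor, 23.7, 29.1 and 15.0 CPM, 1.59-fold lower. The abundant folding genes stayed close to the low dose, with P4HB 1.04-fold higher, HSP90B1 and CANX each 1.11-fold higher, HYOU1 1.03-fold lower and CALR 1.10-fold lower, at 1145, 1091 and 1045 CPM, all 3 below the 54 replicated libraries.

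In the PERK and ATF4 arm 8 of 11 genes with at least 10 CPM in vehicle were higher with aucklandia and 1 lower (median 1.28). The filter on the 2 libraries compared also admits ATF3 and DDIT3, which reached 10 CPM in the high library only. PPP1R15A had 17.7, 20.2 and 249 CPM, ATF3 3.32, 2.19 and 30.1, SLC7A11 47.6, 40.1 and 257, ASNS 41.6, 35.7 and 167, TRIB3 170.3, 168 and 269 and DDIT3 7.70, 8.74 and 19.2. ATF4 was at 300.4, 312 and 373 CPM. Of 12 cytosolic heat shock chaperones 11 were higher (median 1.40), with HSPA1A at 95.4, 81.7 and 3113 CPM and HSPH1 at 136, 133 and 1262 CPM. HSPA1A and HSPA1B are near-identical copies, between which reads can be split. Among 18 other ER folding factors 3 were higher and 1 lower, and among 17 other COPII genes 1 and 3. Of the hepatocyte markers 5 of 10 were lower and 0 higher, and the sum went from 43639.9 to 21294 CPM.

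Set side by side at their high doses, which differ in concentration, the same genes took different courses with the 2 extracts. HSPA5 was at 221 CPM with polygala and 1996 CPM with aucklandia, XBP1 at 788 and 132, CALR at 228 and 1045, and HSP90B1 at 222 and 949. ERN1 was high with both, at 43.6 and 83.8 CPM, and PDIA4 low with both, at 86.7 and 269.6 CPM. Of the 11 genes with an ERSE or ERSE-II match, 8 were lower and 1, XBP1, higher with polygala, and 2 were lower and 2 higher with aucklandia. ERO1B is one of the 2 higher with aucklandia, at 2.70 CPM with the low and 17.0 CPM with the high dose. It passed the CPM filter through the high library only. With polygala ERO1B was at 2.36 and 2.96 CPM, below the filter, and so could count in neither direction. Of the 18 in the promoter table without a match, 9 were lower and 2 higher with polygala, and 1 was lower and 7 higher with aucklandia. Of all genes past the filter, 22.0% were lower and 18.6% higher with polygala, and 23.3% and 21.9% with aucklandia. With yijin 3 of the 11 and 2 of the 18 rose. With schisandra 0 of the 11 were called, while 3 of the 18 rose and 1 fell. The shares of all genes called with these extracts are given above.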

How the data were processed

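The measurements are RNA-seq libraries of HepG2 cells, 60 in all, of RNA with an integrity number above 7, read at 100 bp. The authors deposited 1 table of expected counts per Ensembl gene, made with RSEM per the submitters' processing notes and not scaled. FastQC 0.11.9, Trim Galore 0.6.5, STAR 2.7.3a, RSEM 1.3.3 and hg38 are named, per the submitters' processing notes, and the annotation release is not given in the sources used here. Values were rounded to whole counts, and 10.4% of them were not whole before. The vehicle was dimethyl sulfoxide at 0.1% per the labels of the samples and 2% per the series text, and the sources do not settle which. The part of the series with wortmannin is not analysed here.

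Genes were tested with edgeR 4.0.16 (R 4.3.3), quasi-likelihood, TMM scaling and its filter on low counts, in 1 fit of 54 libraries in 19 groups. Benjamini-Hochberg adjustment ran over all 16924 genes tested in each comparison. CPM use TMM-scaled totals of all 60 libraries. Symbols were matched for 56558 identifiers, and gene positions are from GENCODE on GRCh38. Polygala and aucklandia, with 1 library per dose, were described by fold. Scripts were tested on simulated data. Of 51 replicate pairs 0 were identical. Alternatives were DESeq2 1.42.0, other scalings, no filter, fits of the compared groups only, a replicate block, and each library left out. A filter on the vehicle level for polygala and aucklandia, and the further lists without the libraries that stood apart, were added after seeing the data.

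The genes and lists were chosen with earlier results of these data known. All 33 genes count as named. Those given library by library are up to 6 called genes per replicated extract by smallest p and the largest folds in the others. From each further list up to 3 genes per extract called against both low dose and vehicle in 1 direction are named, with DDIT3, ATF4, ASNS and TRIB3 always given, and any other gene named was chosen after its values were seen.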

Additional observations from a re-analysis of the deposited data

Results flagged for a closer look

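For 11 of the gene and extract pairs the high vs low change differed between the 2 extracts by a direct test (edgeR, adjusted over all genes within the pair). For HSPA5 the change with yijin exceeded that with soshiho by 0.27, with liriope by 0.18, with schisandra by 0.29, with longan by 0.21 and with zizyphus by 0.22 (log2). The HYOU1 difference between yijin and liriope was 0.23 and the CANX difference between yijin and schisandra 0.19. For ERN1 the difference was 0.38 for yijin minus liriope, 0.42 for soshiho minus liriope and -0.43 for liriope minus schisandra. For EDEM1 it was -0.36 for liriope minus schisandra. Without replicate 2 of high liriope the ERN1 difference from yijin had an adjusted p of 0.0720, that from soshiho 0.0622, and the EDEM1 difference 0.0877.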

How the results depend on the processing

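Of 91 calls of single genes that were followed, 29 kept direction and call under every alternative run. DESeq2 lost 0 of them and size factors in place of TMM 1. Leaving out the 2 libraries that stood apart (chosen after seeing the data) lost 11. No filter on low counts lost 33, and scaling by library totals alone 38, with 1 more reversed. Fits of the compared groups only lost 24 and kept 56, and the pairwise differences were not refitted there. The reversed value was HSPA5 in longan high vs vehicle, at 0.017 with totals alone (adjusted p = 0.759). Counts of called genes moved as follows, and where no value shows the cause, the cause was not tested. Without the filter, 3 were called in yijin high vs low, beside 3.03% of all genes, and 1 in schisandra high vs low (3.44%). In the same fit 9 were called in longan high vs vehicle (7.90%) and 4 for unequal responses over extracts (4.01%), where DESeq2 called 5 (2.97%). With the compared groups only, 2 were called in soshiho high vs low (11.2% of all genes) and 0 in schisandra high vs low (0.869%). In liriope high vs vehicle 1 was then called (2.38%). Without the 2 libraries that stood apart, 0 were called in schisandra high vs low (4.32%) and 14 in liriope high vs vehicle (22.0%). With totals alone 23 were called in yijin high vs vehicle (29.1%). For the 2-fold counts and for fits that leave out 1 library at a time, no share of all genes is given here. At 2-fold in place of 1.5-fold, 6 genes passed with aucklandia and 14 with polygala. Leaving out 1 library at a time gave 3 to 5 calls in yijin high vs low, 0 to 7 in schisandra and 0 to 0 in soshiho, liriope, longan and zizyphus. Against vehicle it gave 8 to 11 with yijin, 7 to 12 with soshiho, 6 to 15 with liriope, 10 to 12 with schisandra, 7 to 13 with longan and 8 to 11 with zizyphus. It gave 2 to 4 for unequal responses and 8 to 20 pairwise differences. The liriope count was 15 without replicate 2 of high liriope, the longan count 7 without replicate 1 of vehicle, the soshiho count 7 without replicate 2 of high soshiho, the unequal responses 4 without replicate 3 of high liriope or 2 of low schisandra, and the pairwise count 20 without replicate 3 of low schisandra.

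Whether replicate numbers pair the samples was not settled. Same-numbered correlations ran from -0.66 to 0.69 and in 0 of 12 comparisons were all above 0.1. Between high and low dose they were 0.369, 0.047 and 0.249 with longan and 0.242, -0.664 and -0.268 with zizyphus. With the replicate number as a block all 91 calls were kept. The counts were 5 in yijin high vs low (beside 8.26% of all genes), 4 in schisandra (7.90%) and 0 in the 4 other extracts. In those, soshiho, liriope, longan and zizyphus, 5.34%, 0.0473%, 0.0177% and 0.0355% of all genes were called. There were 2 for unequal responses (6.09%) and 12 pairwise differences.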
